A study of Arabidopsis thaliana with 12 samples.

Results

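WRKY transcription factors bind the W-box of target promoters through a domain that carries the WRKY amino acids next to a zinc finger. In Arabidopsis they are best known from pathogen defence, salicylic acid signalling and leaf senescence, and the genes of many of them respond within hours to stress. The family is divided by the number of WRKY domains and the type of zinc finger into group I, the subgroups of group II and group III. The genes described here are the probe sets to which the array annotation gives exactly 1 gene with a symbol of WRKY and a number. The rule found 6 genes, each with 1 probe set, among the 13356 genes named in this way. Tests ran over all 22746 probe sets that are not array controls. They are WRKY6 (AT1G62300), WRKY42 (AT4G04450) and WRKY47 (AT4G01720) of group IIb, WRKY20 (AT4G26640) of group I, WRKY22 (AT4G01250) of group IIe and WRKY53 (AT4G23810) of group III. The reference gene table (assembly TAIR10.1) lists 67 genes with such a symbol, and the other 61 are not analysed here, so the 6 are no sample of the whole family.

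Whole 14-day-old seedlings grown on agar at 21 °C were measured on Affymetrix ATH1 arrays. In time order the groups are rcf1-1 and wild type at 0 h (not chilled), after 12 h at 4 °C and after 24 h at 4 °C, with 2 arrays each, described as biological replicates, 12 in all. The rcf1-1 line carries a single mutant allele of RCF1, which encodes a DEAD-box RNA helicase. The wild type is Columbia gl1, which lacks leaf hairs, with a CBF2::LUC reporter transgene, and the labels do not state whether the mutant shares that background. Values are log2 values made by RMA, a method that gives 1 background-corrected and normalized value per probe set and array. Array medians lay between 4.03 and 4.21, and a value below its array's median is called low here. RCF1 itself is not analysed here, so the mutation was not checked in these values. All unchilled arrays are from 0 h, with none at 12 h or 24 h. An effect of cold thus cannot be told apart from one of time of day or elapsed time. Differences against 0 h are called cold responses here with that limit.

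The correlation of both replicates across probe sets was 0.989 to 0.996 at 0 h and 12 h, but 0.954 in rcf1-1 and 0.955 in wild type at 24 h. The GAPDH control gave 5' minus 3' log2 differences of -4.45 in rcf1-1 and -5.13 in wild type on the 24 h replicate 2 arrays, against -1.06 to -0.29 on the other 10. Several differences at 24 h whose call or size turns on these arrays are also given without them, and the part of RNA quality in the 24 h differences was not tested. Of the seedling markers, 3 of 15 green tissue genes had a named probe set (8.89 to 12.87 over the arrays), as did 2 of 16 root genes (3.55 to 5.64), 3 of 14 guard cell and stomatal lineage genes (2.58 to 5.53) and 0 of 12 flower genes. The green tissue gene LHCB4.2, of the light-harvesting antenna, fell in the cold, with log2 differences of -1.24 at 12 h and -2.68 at 24 h in rcf1-1 and of -1.09 and -2.51 in wild type (adjusted p of 5.2e-05 to 0.0178). The 12 h calls of LHCB4.2 were lost without any 1 of the 4 arrays compared and held in the 7 other alternatives. Without 1 array the 12 h differences were -1.26 to -1.21 in rcf1-1 and -1.13 to -1.06 in wild type. At 24 h the differences without both replicate 2 arrays were -2.32 in rcf1-1 and -2.19 in wild type. The other 2 paired green tissue genes moved less. LHCB4.1 was not called (-0.23 at 12 h and -0.47 at 24 h in rcf1-1, -0.34 and -0.66 in wild type). RCA was called only at 24 h in rcf1-1 (-0.80, adjusted p = 0.0169), with -0.67 in wild type, and gave -0.27 and -0.29 at 12 h. The part of these genes in the WRKY results was not tested. In whole seedlings, a change in the number of cells of a type and a change in RNA per cell cannot be told apart.

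WRKY6 was the only member called as higher in the cold. Its product is known from leaf senescence and defence and from repressing the phosphate exporter gene PHO1. In rcf1-1 it read 4.65 and 4.12 at 0 h, 6.56 and 6.55 at 12 h, and 5.84 and 4.90 at 24 h. In wild type it read 4.16 and 4.57 at 0 h, 5.75 and 6.11 at 12 h, and 5.21 and 5.08 at 24 h. In both genotypes the 12 h arrays were the highest, every chilled array lay above both unchilled ones, and 1 unchilled array of each genotype was low.

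At 12 h WRKY6 averaged 6.56 ± 0.01 in chilled rcf1-1, against 4.38 ± 0.38 unchilled (SD, n = 2), a rise of 2.18 ± 0.32 on the log2 scale (SE; 4.52-fold; limma, adjusted p = 0.00112). In wild type it averaged 5.93 ± 0.26 at 12 h, against 4.37 ± 0.29 at 0 h, a rise of 1.56 ± 0.32 (2.95-fold; adjusted p = 0.00904). The rcf1-1 call held whichever array was left out, while that in wild type was lost without 0 h replicate 1 (1.36, adjusted p = 0.0856) or without 12 h replicate 2 (1.38, adjusted p = 0.0983).

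At 24 h WRKY6 stood between its 12 h and 0 h levels. Against 0 h it was higher by 0.99 ± 0.32 in rcf1-1 (adjusted p = 0.0527) and by 0.78 ± 0.32 in wild type (adjusted p = 0.15), neither called. Without both 24 h replicate 2 arrays both were called, at 1.45 (adjusted p = 5.5e-04) in rcf1-1 and 0.84 (adjusted p = 0.028) in wild type, on 1 array each at 24 h. Without 24 h replicate 1 the rcf1-1 difference was 0.52 (adjusted p = 0.216). The 24 h level minus the 12 h level was -1.19 ± 0.32 in rcf1-1 (adjusted p = 0.0758) and -0.78 ± 0.32 in wild type (adjusted p = 0.232). The lower level at 24 h than at 12 h, seen on every array, thus did not pass the test in either genotype. The value in rcf1-1 was -1.66 without 24 h replicate 1 (adjusted p = 0.00973) and -0.72 without 24 h replicate 2.

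**Figure D1:**
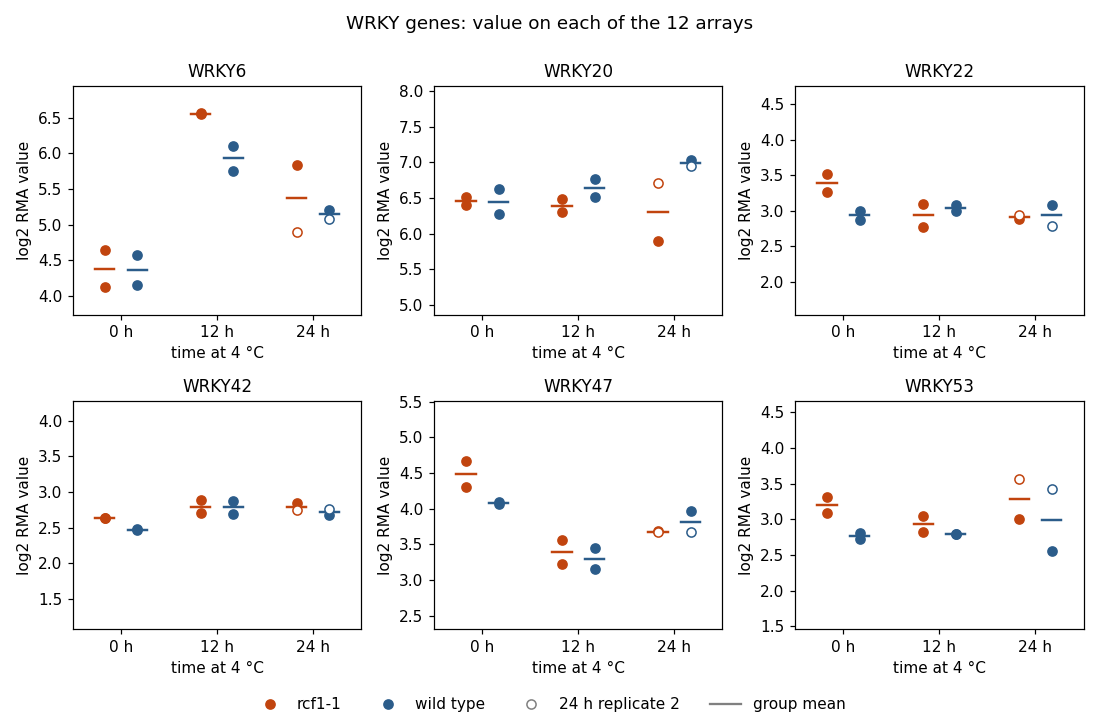
Log2 RMA value (vertical axis, the same span in every panel) of the 6 WRKY genes on each array at 0 h, 12 h and 24 h at 4 °C, with rcf1-1 left of wild type, lines at group means and open points for the 24 h replicate 2 arrays. WRKY6 peaks at 12 h in both genotypes (means of 6.56 in rcf1-1 and 5.93 in wild type), and WRKY47 is lowest there (3.39 and 3.30).

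WRKY47 fell at 12 h, opposite in direction to WRKY6, although both belong to group IIb. Its product has been linked to tolerance of aluminium through cell wall genes. In rcf1-1 it read 4.31 and 4.67 at 0 h, 3.23 and 3.56 at 12 h, and 3.69 and 3.67 at 24 h. In wild type it read 4.07 and 4.1 at 0 h, 3.45 and 3.15 at 12 h, and 3.97 and 3.67 at 24 h. Both 12 h arrays lay below both 0 h and both 24 h arrays in each genotype. Only the unchilled rcf1-1 arrays lay above their array's median, so the sizes of these falls may be understated.

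WRKY47 fell by 1.1 ± 0.22 at 12 h in rcf1-1 (SE, n = 2 per time; 3.39 chilled against 4.49 unchilled; adjusted p = 0.00694) and by 0.79 ± 0.22 in wild type (3.30 against 4.08; adjusted p = 0.0393). At 24 h the difference was -0.81 ± 0.22 in rcf1-1, which was called (adjusted p = 0.0239), and -0.26 ± 0.22 in wild type, which was not (adjusted p = 0.5; -0.11 and 0.802 without both 24 h replicate 2 arrays). The difference between these 24 h responses was -0.55 ± 0.31 (adjusted p = 0.522), so the genotypes were not shown to differ. The 24 h level minus the 12 h level was 0.29 ± 0.22 in rcf1-1 (adjusted p = 0.526) and 0.53 ± 0.22 in wild type (adjusted p = 0.235). The wild-type call at 12 h was lost when any 1 of its 4 arrays was left out (-0.94 to -0.64, adjusted p of 0.0863 to 0.279) and after a second quantile normalization (-0.71, adjusted p = 0.0725). The rcf1-1 call at 12 h was lost without 0 h replicate 2 (-0.92, adjusted p = 0.0889) or 12 h replicate 1 (-0.93, adjusted p = 0.0915), and that at 24 h without 0 h replicate 1 (-0.99, adjusted p = 0.0523), 0 h replicate 2 (-0.63, adjusted p = 0.191) or 24 h replicate 2 (-0.80, adjusted p = 0.0581).

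With WRKY6 and WRKY47 as the called genes, 2 of the 6 members changed at 12 h in each genotype, 1 in each direction. Over all probe sets 12.2% were called at 12 h in rcf1-1 (5.46% higher and 6.78% lower) and 12.0% in wild type (6.05% higher and 5.92% lower). At 24 h 1 of 6 was called in rcf1-1, where 20.8% of all probe sets were (12.4% lower), and 0 of 6 in wild type, where 13.2% were. By an unadjusted p under 0.05, 3 members passed at 24 h in rcf1-1 (34.6% of all probe sets) and 1 in wild type (26.6%). The median log2 difference of the 6 was -0.17 in rcf1-1 and 0.15 in wild type at 12 h, and -0.03 and 0.23 at 24 h, against medians over all probe sets of 0, -0.01, 0.03 and 0.02. Both chilled arrays lay above both unchilled ones at 12 h for 2 members in rcf1-1 (32.5% of all probe sets) and 2 in wild type (27.9%), and below them for 3 in rcf1-1 (35.8%) and 1 in wild type (31.2%). At 24 h they lay above for 2 members in rcf1-1 (30.8%) and 3 in wild type (23.8%), and below for 2 in rcf1-1 (31.2%) and 1 in wild type (25.5%). Between 12 h and 24 h, 0 of 6 were called in either genotype (by an unadjusted p under 0.05, 1 member in rcf1-1 against 18.1% of all probe sets, and 2 in wild type against 17.9%), where 3.19% of all probe sets were called in rcf1-1 and 4.62% in wild type. Both 24 h arrays lay above both 12 h arrays for 1 member in rcf1-1 (22.0% of all probe sets) and 2 in wild type (21.6%), and below them for 1 in rcf1-1 (24.4%) and 1 in wild type (22.1%).

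**Figure D2:**
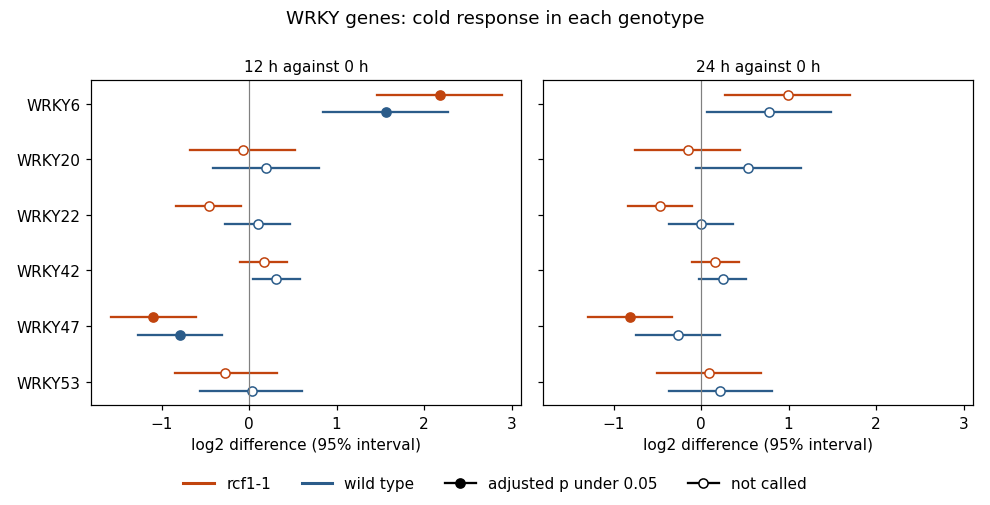
Log2 difference of chilled minus unchilled seedlings (horizontal axis) with its unadjusted 95% interval for the 6 WRKY genes at 12 h (left) and 24 h (right), rcf1-1 above wild type and filled points for adjusted p under 0.05. WRKY6 at 2.18 and 1.56 and WRKY47 at -1.1 and -0.79 are called at 12 h, and WRKY47 at -0.81 in rcf1-1 is the single call at 24 h.

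The other 4 members gave no call against 0 h. WRKY20, the group I gene, whose product carries a pair of WRKY domains, was above its array's median on all 12 arrays, between 5.90 and 7.03. In rcf1-1 it read 6.52 and 6.40 at 0 h, 6.30 and 6.48 at 12 h, and 5.90 and 6.71 at 24 h. In wild type it read 6.27 and 6.62 at 0 h, 6.77 and 6.51 at 12 h, and 7.03 and 6.95 at 24 h. Both wild-type arrays at 24 h lay above every other array, and the lowest array was rcf1-1 at 24 h, replicate 1. Against 0 h, WRKY20 at 24 h differed by -0.15 ± 0.27 in rcf1-1 (adjusted p = 0.723; -0.56 and 0.0474 without both 24 h replicate 2 arrays) and by 0.54 ± 0.27 in wild type (adjusted p = 0.239).

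WRKY22, WRKY42 and WRKY53 were low on all 12 arrays, so their differences rest on weak signals and may be understated. WRKY22 acts in early defence downstream of the flagellin receptor and a MAP kinase cascade. It read 3.51 and 3.27 in rcf1-1 at 0 h, its highest values, and between 2.78 and 3.09 on the other 10 arrays. Its 12 h level minus its 0 h level was -0.46 ± 0.17 in rcf1-1 (adjusted p = 0.114), and the same difference at 24 h was -0.47 ± 0.17 (adjusted p = 0.0696). Neither passed, although the chilled arrays lay below the unchilled ones. The 12 h difference, but not that at 24 h, was called with array quality weights and with only the compared arrays. Those 12 h fits called 35.4% and 37.6% of all probe sets. Without both 24 h replicate 2 arrays, both were called (-0.46, adjusted p = 0.0312, and -0.50, adjusted p = 0.0467).

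WRKY42, which represses PHO1 together with WRKY6, stayed between 2.46 and 2.89 over the 12 arrays. Wild type at 0 h gave the lowest values, 2.48 and 2.46. At 12 h it was 2.88 and 2.69 in wild type, a difference of 0.31 ± 0.12 that was not called (adjusted p = 0.14), and at 24 h the difference was 0.25 ± 0.12 (adjusted p = 0.218). In rcf1-1 the differences were 0.17 ± 0.12 at 12 h (adjusted p = 0.484) and 0.16 ± 0.12 at 24 h (adjusted p = 0.365). In each genotype every chilled array lay above both unchilled ones, as for WRKY6, but all these values were low. By percentile within its array, that order held in wild type but not in rcf1-1. The unchilled rcf1-1 arrays stood at 20.8 and 19.8. The chilled ones stood at 20.6 and 27.6 at 12 h, and at 26.3 and 15.5 at 24 h.

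WRKY53 is a well-known early activator of leaf senescence. In rcf1-1 it read 3.09 and 3.31 at 0 h, 2.82 and 3.05 at 12 h, and 3.0 and 3.57 at 24 h. In wild type it read 2.73 and 2.81 at 0 h, 2.80 and 2.79 at 12 h, and 2.55 and 3.43 at 24 h. Its highest value in each genotype came from the 24 h replicate 2 array. That array exceeded replicate 1 by more than any other pair of replicates of this gene differed.

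To ask what the mutation alters, rcf1-1 was set against wild type at each time. Without cold, 4 of the 6 members, WRKY22, WRKY42, WRKY47 and WRKY53, had both rcf1-1 arrays above both wild-type arrays. Over all probe sets 22.9% were separated in that direction, and 26.6% in the opposite one, which 0 members showed. None of the 4 was called, and 0.110% of all probe sets were. By an unadjusted p under 0.05, 1 member passed, against 6.85% of all probe sets.

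WRKY22 averaged 3.39 ± 0.17 in rcf1-1 and 2.94 ± 0.09 in wild type at 0 h (SD, n = 2 each), a difference of 0.45 ± 0.17 (adjusted p = 0.581). WRKY53 averaged 3.20 ± 0.15 in rcf1-1 and 2.77 ± 0.06 in wild type, a difference of 0.43 ± 0.27 (adjusted p = 0.917). WRKY47 averaged 4.49 ± 0.25 in rcf1-1 and 4.08 ± 0.03 in wild type, a difference of 0.41 ± 0.22 (adjusted p = 0.832). WRKY42 differed by 0.16 ± 0.12 (adjusted p = 0.974). WRKY6, at 4.38 in rcf1-1 and 4.37 in wild type, differed by 0.01 ± 0.32, with a 95% interval of -0.70 to 0.73, which does not show equal levels.

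At 12 h 0 of the 6 were called between genotypes, against 1.35% of all probe sets, and 0 passed an unadjusted p under 0.05, against 11.7%. The largest difference was that of WRKY6, where both rcf1-1 arrays (6.56 and 6.55) lay above both wild-type arrays (5.75 and 6.11). WRKY53 was separated in the same direction (26.5% of all probe sets), and WRKY20 in the opposite one (28.6%). The WRKY6 difference came to 0.63 ± 0.32 (1.54-fold; adjusted p = 0.512). In a fit of the 4 compared arrays alone it was called (adjusted p = 0.0117), and in that fit 3874 of all probe sets were called, against 307 with all arrays.

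At 24 h 0 of the 6 were called between genotypes, against 7.50% of all probe sets, and WRKY20 alone of the 6 passed an unadjusted p under 0.05, against 20.9% of all probe sets. WRKY20 averaged 6.31 ± 0.58 in rcf1-1 and 6.99 ± 0.06 in wild type, a difference of -0.68 ± 0.27 (adjusted p = 0.179). Both rcf1-1 arrays lay below both wild-type arrays, by -1.13 between the replicate 1 arrays and by -0.23 between the replicate 2 arrays with the low 5' control signal. Over all probe sets 19.0% were separated in that direction, and 16.7% in the opposite one, which 0 members showed. Without both of these it was called at -1.13 (adjusted p = 0.00329, 1 array per genotype at 24 h), and with a term shared by them at -0.68 (adjusted p = 0.0275). WRKY6 differed by 0.22 ± 0.32 (adjusted p = 0.775), by -0.25 without rcf1-1 replicate 1, and by 0.62 without both replicate 2 arrays (adjusted p = 0.171).

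**Figure D3:**
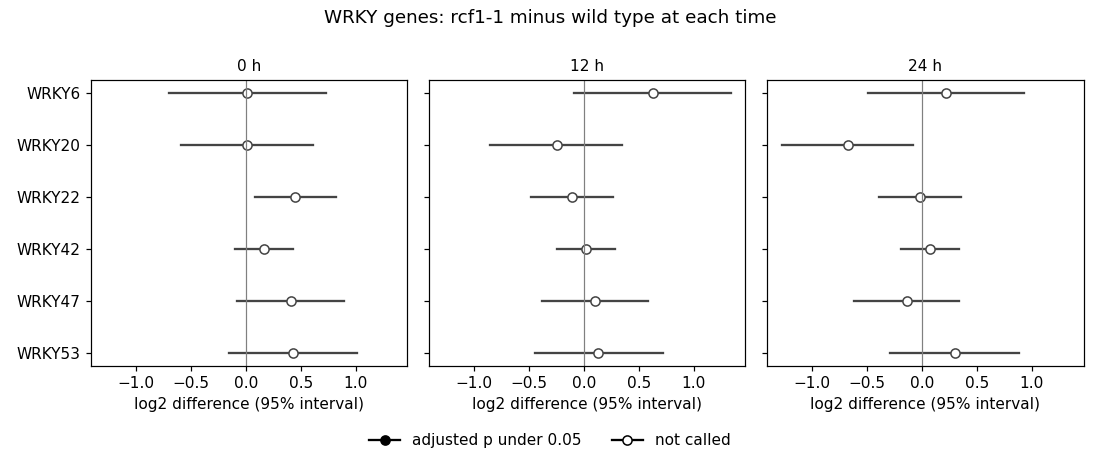
Log2 difference of rcf1-1 minus wild type (horizontal axis) with its unadjusted 95% interval for the 6 WRKY genes at 0 h, 12 h and 24 h, open points marking differences that were not called. No member is called at any time, and the intervals of WRKY22 at 0 h (0.08 to 0.82) and WRKY20 at 24 h (-1.28 to -0.08) are the ones that lie on 1 side of 0.

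Whether the mutation alters the response to cold was tested as the difference between the responses of rcf1-1 and wild type. It called 0 of the 6 members at 12 h and 0 at 24 h, against 0.0879% and 1.10% of all probe sets. By an unadjusted p under 0.05, WRKY22 passed at 12 h, against 5.19% of all probe sets, and 0 members at 24 h, against 12.7%. The WRKY6 response in rcf1-1 minus that in wild type was 0.61 ± 0.46 at 12 h (adjusted p = 1; 95% interval -0.39 to 1.62) and 0.21 ± 0.46 at 24 h (adjusted p = 0.916). The same difference for WRKY22 was -0.56 ± 0.24 at 12 h (adjusted p = 0.901) and -0.47 ± 0.24 at 24 h (adjusted p = 0.453). That of WRKY47 differed by -0.31 ± 0.31 at 12 h (adjusted p = 1). The WRKY20 responses differed by -0.69 ± 0.39 at 24 h (adjusted p = 0.515), and by -1.14 without both 24 h replicate 2 arrays (adjusted p = 0.0171). These contrasts share the 0 h arrays with the genotype difference at 0 h, where WRKY22 was highest in rcf1-1.

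Taking the mean genotype difference of all 3 times (6 arrays of each genotype), 0 of the 6 members were called between rcf1-1 and wild type, where 8.45% of all probe sets were. At an unadjusted p under 0.05, 0 members passed, against 21.8% of all probe sets. WRKY20 differed by -0.31 ± 0.16 (adjusted p = 0.296), WRKY6 by 0.29 ± 0.19 (adjusted p = 0.433) and WRKY53 by 0.29 ± 0.15 (adjusted p = 0.324). Without both 24 h replicate 2 arrays these 3 were called, at -0.46 (adjusted p = 0.0067), 0.42 (adjusted p = 0.0399) and 0.34 (adjusted p = 0.00975), in a fit that called 6156 of all probe sets.

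Among 1557 genes with a symbol, the profile over the 12 arrays closest to that of WRKY6 was that of SP1L5 (r = 0.94), followed by LEA4-5 (0.94), a gene for a late embryogenesis abundant protein, and UGT84A3 (0.93). The profile closest to that of WRKY47 was that of NCRK (r = 0.94), followed by PRA1.F1 (0.91) and BZIP61 (0.90). These correlations describe arrays that fall into chilled and unchilled groups and share that step.

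Few genes of the pathways around the WRKY factors had a named probe set, 5 of 165 in 8 lists, and in 4 lists, among them the MAP kinase cascade, no gene had one. Between genotypes 0 of the 5 were called at any time as fitted on all arrays, but EFR, BIK1 and SAG29 were called under some alternatives. Against 0 h, 1 was higher and 0 lower at 12 h in each genotype, where 5.46% of all probe sets were higher in rcf1-1 and 6.05% in wild type. At 24 h 2 were higher and 1 lower in rcf1-1, against 8.38% and 12.4% of all probe sets. In wild type 0 were higher and 1 lower at 24 h, against 5.83% and 7.33%.

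BIK1, a kinase gene of the pattern receptor complex, was higher by 1.14 ± 0.38 at 12 h in rcf1-1 (adjusted p = 0.0801) and rose by 1.41 ± 0.38 in wild type (adjusted p = 0.0342). The wild-type call was lost without any 1 of its 4 arrays, at differences of 1.36 to 1.46, and held in the 7 other alternatives. EFR, the receptor gene for a bacterial elongation factor, rose by 1.49 ± 0.27 at 12 h in rcf1-1 (adjusted p = 0.00429) and differed by 0.25 ± 0.27 in wild type (adjusted p = 0.705), with a difference between the responses of 1.24 ± 0.39 (adjusted p = 0.579; called in 3 of 15 alternatives). EFR was low on every wild-type array, on both unchilled rcf1-1 arrays and on 1 rcf1-1 array at 24 h. Its differences thus rest partly on weak signals. The rcf1-1 call of EFR was lost without 0 h replicate 2 (adjusted p = 0.0503). At 24 h in rcf1-1, EFR rose by 1.32 ± 0.27 (adjusted p = 0.00658, and 0.0628 without 0 h replicate 2) and BIK1 by 1.36 ± 0.38 (adjusted p = 0.027, lost without 0 h replicate 1, 0 h replicate 2 or 24 h replicate 1). Both of these 24 h calls in rcf1-1 were also lost with only the compared arrays. In wild type at 24 h EFR differed by 0.22 ± 0.27 (adjusted p = 0.674) and BIK1 by 0.53 ± 0.38 (adjusted p = 0.425). Without both 24 h replicate 2 arrays BIK1 was called in both genotypes, at 1.98 in rcf1-1 (adjusted p = 1.2e-06) and 0.97 in wild type (adjusted p = 0.00116), and EFR in rcf1-1 at 1.80 (adjusted p = 4.8e-06), against 0.07 in wild type (adjusted p = 0.857).

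Between rcf1-1 and wild type EFR differed by 1.01 at 12 h (adjusted p = 0.121; called in 3 of 11 alternatives) and by 0.87 at 24 h (adjusted p = 0.0879; called in 3 of 12). BIK1 differed by 1.25 at 24 h (adjusted p = 0.0751; called in 5 of 12 alternatives, over a range of 0.63 to 1.87). Without both 24 h replicate 2 arrays the 24 h differences were called at 1.5 for EFR (adjusted p = 2.6e-04) and 1.43 for BIK1 (adjusted p = 2.7e-04). In that fit the difference of responses at 24 h was called too, at 1.73 for EFR (adjusted p = 9.0e-04) and 1.02 for BIK1 (adjusted p = 0.0172). Fitted on all arrays these differences of responses were 1.1 for EFR (adjusted p = 0.246) and 0.84 for BIK1 (adjusted p = 0.59).

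SAG29, a senescence-associated gene for a sugar transporter, fell at 24 h by 2.44 ± 0.47 in rcf1-1 (adjusted p = 0.00422) and by 2.73 ± 0.47 in wild type (adjusted p = 0.00316). Without both 24 h replicate 2 arrays the differences were -1.71 in rcf1-1 and -2.12 in wild type, both called. Leaving out 1 array at a time gave -3.17 (without 24 h replicate 1) to -1.71 (without 24 h replicate 2) in rcf1-1 and -3.35 to -2.12 in wild type, and the rcf1-1 call was lost with only the compared arrays (adjusted p = 0.051). SAG29 was lower in rcf1-1 than in wild type, with differences of -0.82 at 0 h (adjusted p = 0.87), -0.92 at 12 h (adjusted p = 0.504) and -0.53 at 24 h (adjusted p = 0.596). Between the genotypes it was called at 0 h in 1 of 11 alternatives and at 12 h in 3 of 11. The mean genotype difference over the 3 times was 0.55 for EFR (adjusted p = 0.061), 0.61 for BIK1 (adjusted p = 0.127) and -0.76 for SAG29 (adjusted p = 0.124). It was called in 8 of 19 alternatives for EFR and in 5 of 19 each for BIK1 and SAG29. ZAP1, the gene also called WRKY1, lies outside the rule because of its symbol, and was not called in any comparison made here (6.24 to 7.13 over the 12 arrays).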

How the data were processed

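The deposited table holds 22810 probe sets on 12 arrays in log2 units, which the authors computed with RMA (per the submitters' processing notes). Which program ran RMA, and on which arrays jointly, the sources used here do not state. The 64 array control probe sets were left out of tests. Genes were named through the platform annotation (exactly 1 gene for 13513 probe sets, several for 503, none for 8730) and the TAIR10.1 gene table. The number of arrays limits the precision.

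Tests used limma 3.58.1 in R 4.3.3 (lmFit on 6 group means over all 12 arrays, 6 residual degrees of freedom, eBayes with a trend), with p-values two-sided and adjusted by Benjamini-Hochberg over 22746 probe sets within a comparison. A gene was called at an adjusted p under 0.05. SEs pool the spread of all groups. The fit was tried on simulated data for wild type at 12 h against 0 h and for the genotypes at 0 h. Comparisons with 24 h and differences of responses were not simulated. The rule for names asked for per-array values of WRKY6, WRKY53 and called members (so WRKY47) and for the called genes of the context lists. The further values of WRKY20, WRKY22 and WRKY42, and values without a call of list genes, were chosen after being seen. The members, lists and tests were chosen with earlier results of these data known. The comparisons of 24 h with 12 h, the average over times and the most similar profiles were added after values were seen. Tried as alternatives were eBayes with no trend, removal of low probe sets, a second quantile normalization, array weights, a replicate block, the compared arrays alone, each array left out, and both 24 h replicate 2 arrays left out or given a term.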

Additional observations from a re-analysis of the deposited data

How the results depend on the processing

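For 52 single-gene differences, 659 alternative values were computed: 574 kept direction and side of the threshold, 51 gained a call, 26 lost one and 8 changed sign, all 8 of differences that were not called in either fit. The count of called WRKY genes at 24 h against 0 h in rcf1-1, 1 as reported, was 2 without a variance trend, without probe sets below the 30th percentile, after a second quantile normalization and when the 24 h replicate 2 arrays shared a term. Of all probe sets tested, 21.8%, 30.9%, 20.2% and 31.9% were called in these fits, in that order, against 20.8% as reported. The count was 0 with array quality weights (17.0% of all probe sets called) and with only the compared arrays (8.80%). Without those 2 arrays the count in wild type at 24 h against 0 h was 1, between genotypes at 24 h 1, for the difference of responses at 24 h 1, and averaged over times 3, each 0 as reported. With a term for them it was 1 in wild type at 24 h against 0 h, 1 between genotypes at 24 h, 1 in rcf1-1 at 24 h against 12 h and 1 averaged over times. Leaving out both was chosen after seeing the data for the comparisons without 24 h arrays. A second quantile normalization left 1 call in wild type at 12 h (12.0% of all probe sets, and 12.0% as reported). Only the compared arrays gave 1 between genotypes at 12 h (17.0%, against 1.35% as reported).

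Leaving out 1 array at a time gave 0 to 1 calls at 12 h in wild type, 1 to 2 at 12 h in rcf1-1 and 0 to 1 at 24 h in rcf1-1. It gave 0 to 1 also between genotypes at 24 h, averaged over times, and at 24 h against 12 h in rcf1-1. The cause was not tested. The sign changes were in WRKY6 between genotypes at 0 h (-0.02 after a second quantile normalization, -0.25 to 0.28 leaving out 1 array) and at 24 h (-0.25 to 0.69), in its difference of responses at 24 h (-0.26 to 0.67), and in WRKY20 at 24 h in rcf1-1 (0.04 after a second quantile normalization, -0.56 to 0.26 leaving out 1 array). Replicate differences correlated between groups at r from -0.10 to 0.09, except 0.69 between the genotypes at 24 h. Replicates of the same number thus shared no clear shift across groups, apart from the 24 h arrays. Whether they were grown or processed together was not tested. With the replicate block the counts were those reported (2, 2 and 1 in the cold, 0 otherwise). Over all probe sets the counts moved as well, from 25 at 0 h between genotypes to between 2 and 1216. At 12 h they moved from 307 to between 23 and 3874, and at 24 h from 1706 to between 17 and 5426. For the difference of responses they moved from 20 to between 4 and 685 at 12 h, and from 251 to between 28 and 3150 at 24 h. Averaged over times the count moved from 1921 to between 804 and 6156. Against 0 h it moved in wild type from 2724 to between 1267 and 6498 at 12 h and from 2994 to between 785 and 5612 at 24 h, and in rcf1-1 from 2784 to between 1335 and 8550 and from 4734 to between 2001 and 7724. Between 24 h and 12 h it moved from 726 to between 0 and 3544 in rcf1-1 and from 1051 to between 142 and 3898 in wild type. Averaging over several probe sets of a gene was not run, since each WRKY gene has 1. WRKY42 and WRKY53 fell below the 30th percentile filter. Low signal limits WRKY22, WRKY42 and WRKY53.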
